A study of Mus musculus with 3 samples.

Results

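The genes described here are the receptors and ligands of the platelet-derived growth factor (PDGF) and Kit pathways in mouse embryonic stem (ES) cells, the cultured pluripotent cells of the early embryo, during overexpression of the transcription factor Gata6. The members are Pdgfra, Pdgfrb, Pdgfa, Pdgfb, Pdgfc, Kit and Kitl, 7 of the 18193 genes that the array could name. They, like the gene lists used below, were chosen by name with earlier results of these data known. Shares of all genes set beside their counts are therefore given for scale and are not a test. Every probe set that the platform annotation gives to 1 of the members alone was taken. This gave 17 probe sets, and 0 further probe sets were shared between a member and another gene.

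PDGF receptors and Kit are class III receptor tyrosine kinases of the cell membrane, which pair up when a dimeric ligand binds and then phosphorylate each other. PDGF-AA and PDGF-CC act through PDGFR-alpha, PDGF-BB acts through both receptors, and stem cell factor, the product of Kitl, acts through Kit. In the blastocyst PDGFR-alpha marks the primitive endoderm, the extraembryonic layer that Gata6 specifies, while PDGF-A is made by the pluripotent cells beside it. Kit is known from germ cells, blood progenitors and melanocytes, and is also made by ES cells.

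The series holds 3 Affymetrix arrays, 1 each for day 0 (the control), day 1 and day 2 of Gata6 overexpression, in cells engineered so that the Gata6 construct is controlled by dex. A change in dex and the time in culture go with the day, so neither can be told apart from Gata6 in any difference given here. The sources used here do not give the ES line, its number of clones, the promoter and form of the Gata6 construct, the dose of dex, or whether the day 0 culture came from the engineered cells. With 1 array a day there are no replicates: each difference lies between single cultures, no test between days is possible, and fewer cells with a transcript cannot be told apart from less transcript per cell.

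Values are MAS5 signals, linear brightness summaries of a probe set, brought to a common trimmed mean. Signals under a floor of 54.0 were set to that floor before a ratio was taken, and a member counts as higher or lower where its signals on the days compared lie at least 2-fold apart. Olfactory and vomeronasal receptor probe sets, which ES cells should not use, gave a background of 70.3, their 95th percentile. Where the dimmer signal lay under that background the fold is a lower bound, written "at least", with a dimmer signal under the floor replaced by the floor. The error given as ± is the spread of a log2 ratio between probe sets of the same gene at like brightness, read at the geometric mean of the signals compared: 0.56 below 200, 0.41 up to 1000, 0.25 up to 5000 and 0.16 beyond. It does not cover how far cultures of the same day would differ.

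The arrays had like medians of 84.2, 81.8 and 86.4, and Gata6, read as a check of the labels, gave 110 on day 0, 5574 on day 1 and 6070 on day 2 with its brightest probe set. Of the primitive endoderm markers on the array, 11 of 11 were higher on day 1 and on day 2, Gata6 among them, against 6.00% and 11.0% of all genes. Their summed signal went from 5845 to 86528 and 152513. Of 10 ES cell markers, 8 were lower on both days, against 6.58% and 10.1% of all genes. The others were Klf4 (7216, 7641 and 9672) and Dppa5a (40759, 37051 and 36733), neither of them 2-fold apart between days. The sum of the 10 went from 132247 to 63108 and 56770, and Dppa5a alone made up most of it on day 1 and day 2. The median log2 ratio of all measured genes lay near 0: -0.04 for day 1 and -0.05 for day 2 against day 0, and -0.01 for day 2 against day 1.

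Across the members, Pdgfra was higher on both days of Gata6 overexpression, while Pdgfa and Pdgfc, the genes of ligands that act through it, were lower on both. Pdgfb was lower on day 1 and not separated from day 0 on day 2. On day 1, 1 of 7 members was at least 2-fold higher (Pdgfra), where 6.00% of the 13602 genes compared were, and 3 of 7 were at least 2-fold lower (Pdgfa, Pdgfb and Pdgfc), where 6.58% were. On day 2, of the 6 members above the floor on at least 1 of the arrays, 1 was higher than on day 0 (Pdgfra; 11.0% of 13865 genes) and 2 were lower (Pdgfa and Pdgfc; 10.1%). From day 1 to day 2, 2 of 7 members were higher (Kit and Pdgfb; 5.61% of 13468 genes) and 0 were lower (3.67%). Counted by probe set, 3 of 15 measured were higher on day 1 (all of Pdgfra; 5.94% of all probe sets). There 4 were lower (of Pdgfa, Pdgfb and Pdgfc; 5.90%). On day 2 it was 3 of 14 higher (all of Pdgfra; 10.8%) and 4 of 14 lower (of Pdgfa and Pdgfc; 9.12%). From day 1 to day 2 it was 3 of 15 higher (of Kit and Pdgfb; 5.31%) and 0 lower (3.49%). Probe sets of 1 gene are repeat readings on the same arrays and do not count as separate members. The day 1 and day 2 ratios share the day 0 array, so they are not independent of each other. The members' own median log2 ratio was -0.92 for day 1, 0.14 for day 2 and -0.23 for the step between them.

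**Figure D1:**
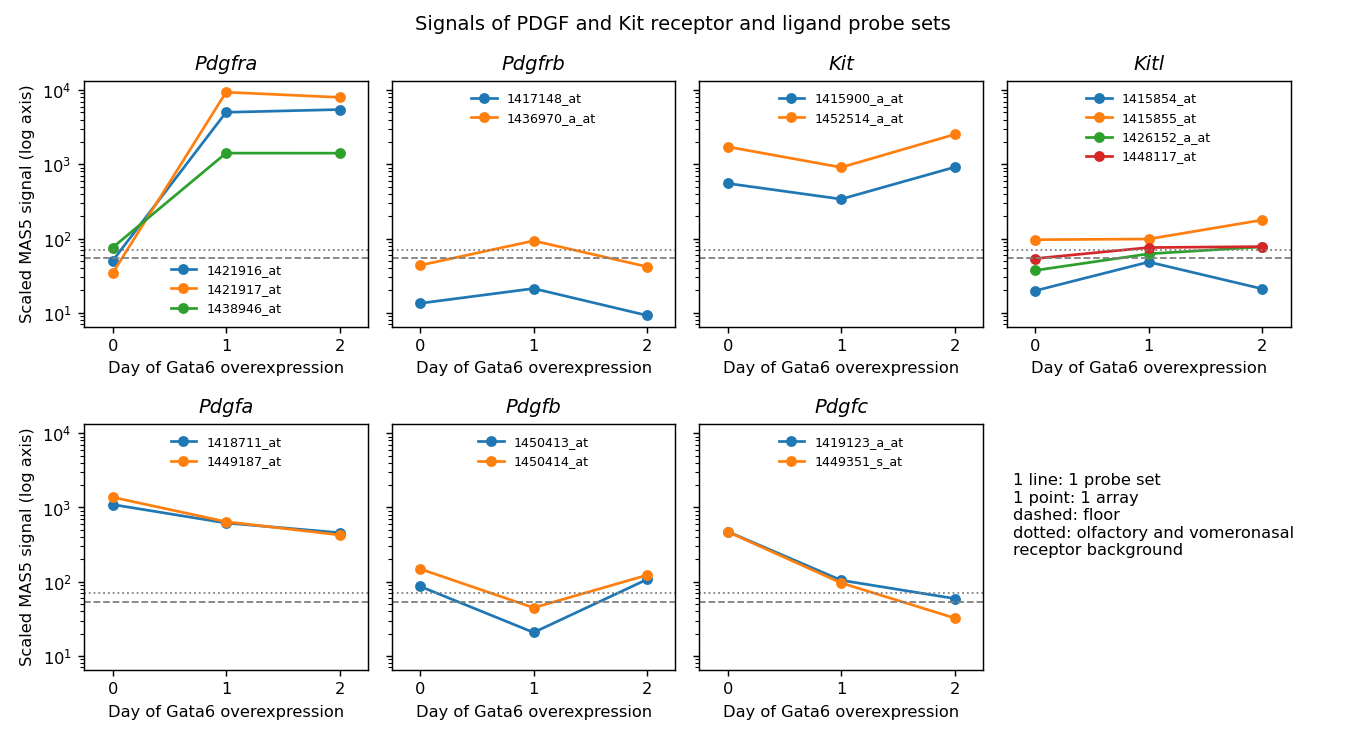
Scaled MAS5 signal (log axis) of each of the 17 probe sets against the day of Gata6 overexpression, 1 panel per gene and 1 array per point. Dashed lines mark the floor (54.0) and dotted lines the receptor background (70.3). All 3 Pdgfra lines climb from near the floor to above 1400, those of Pdgfa and Pdgfc descend, and those of Kit and Pdgfb dip on day 1. Those of Pdgfrb lie near or under the floor. The Kitl lines are dim, the brightest lying above the background on each day and reaching 178 on day 2.

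Pdgfra encodes PDGFR-alpha. Its probe set 1421917_at, the brightest of the 3, read 34.1 on day 0, 9365 on day 1 and 7986 on day 2. Probe set 1421916_at read 50.01, 5022 and 5467, and 1438946_at read 75.4, 1415 and 1412. On all 3 probe sets, day 0 was low and both later days were high, each probe set having 1 value per day. On day 0 only 1438946_at lay above the receptor background, by a narrow margin.

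The day 1 signal of 1421917_at was at least 173-fold above that of day 0 (log2 ratio 7.44 ± 0.41), and its day 2 signal at least 148-fold (7.21 ± 0.41). For 1421916_at the folds were at least 93.0 and at least 101. For 1438946_at they were 18.8 and 18.7, so the probe sets differed in size but not in direction. The mean log2 ratio over the 3 probe sets was 6.07 ± 1.65 (SD over probe sets, not over cultures) on day 1 and 6.03 ± 1.59 on day 2.

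From day 1 to day 2 the Pdgfra signal held level. The log2 ratios were 0.12, -0.23 and -0.00 for 1421916_at, 1421917_at and 1438946_at, and the probe sets did not share a sign. The order of the days is therefore day 0 lowest, with day 1 and day 2 not separated. Its rank among all genes depends on the floor, since the day 0 signal of Pdgfra, like that of other genes, lay under it. Over the alternatives, the genes with a higher floored ratio than Pdgfra numbered 0 to 3 on day 1 and 3 to 12 on day 2, the highest counts coming from the mean over probe sets.

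The 300 bases around the annotated start of Pdgfra, Pdgfc and Kit are shown because these members had 3 different time courses: Pdgfra was higher, Pdgfc was lower, and Kit had its lowest signal on day 1. Each runs from 250 bases before the start to 50 bases after the start's first base, on the gene's strand, from RefSeq on GRCm38.p6. Pdgfra lies at chr5:75152001-75152300 (plus strand), Pdgfc at chr3:81036166-81036465 (plus strand) and the first of a pair of Kit windows at chr5:75574737-75575036 (plus strand). Capitals mark a GC box (GGGCGG on either strand), and windows in lower case throughout hold none of the motifs searched.
Pdgfra: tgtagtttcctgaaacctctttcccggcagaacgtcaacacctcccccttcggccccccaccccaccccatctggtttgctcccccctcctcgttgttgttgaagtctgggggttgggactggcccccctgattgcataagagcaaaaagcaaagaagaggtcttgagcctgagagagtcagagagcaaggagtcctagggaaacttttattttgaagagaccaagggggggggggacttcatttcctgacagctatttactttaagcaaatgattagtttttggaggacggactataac
Pdgfc: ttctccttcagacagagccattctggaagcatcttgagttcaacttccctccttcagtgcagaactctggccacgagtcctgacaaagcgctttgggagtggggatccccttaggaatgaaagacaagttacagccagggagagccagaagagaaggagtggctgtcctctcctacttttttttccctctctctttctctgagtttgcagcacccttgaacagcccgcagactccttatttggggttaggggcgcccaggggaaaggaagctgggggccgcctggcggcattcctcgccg
Kit: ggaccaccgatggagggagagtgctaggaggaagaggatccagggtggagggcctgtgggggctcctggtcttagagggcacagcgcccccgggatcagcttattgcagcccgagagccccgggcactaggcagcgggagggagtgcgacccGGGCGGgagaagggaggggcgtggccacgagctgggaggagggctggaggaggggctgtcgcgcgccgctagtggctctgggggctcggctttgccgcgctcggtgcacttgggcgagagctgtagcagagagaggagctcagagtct

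Windows of 5 of the 7 members were searched, 7 windows in all, the others being for Pdgfa, Kitl and a second Kit start. None was searched for Pdgfrb or Pdgfb. Any member window on 1 chromosome was left out, while the shares of all genes kept that chromosome. The GATA motif, searched on both strands as AGATAA or AGATAG or TGATAA or TGATAG, was in 0 of the 7 (29.8% of 32851 windows of all genes), so in 0 of 5 members (33.0% of 27025 genes). The GC box was in 5 of the 7 windows, but those of Kit overlap and hold the same box. By gene it was in 3 of 5 members, against 38.2% of all genes. It was absent from the windows of Pdgfra and Pdgfc, whose G and C content was 51.0% and 55.0%, and present in those of Pdgfa, Kit and Kitl, at 67.0% to 73.3%. The TATA box (TATAAA) was in 1 of 5 members, Kitl, against 15.7% of all genes. A motif match is a string of letters and not a bound site, and its absence here covers these windows alone.

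Pdgfrb encodes PDGFR-beta, the receptor of mural and mesenchymal cells. Probe set 1436970_a_at read 43.6 on day 0, 93.2 on day 1 and 41.7 on day 2. Probe set 1417148_at read 13.4, 21.2 and 9.20. Thus 1 of the 6 signals passed the receptor background, on day 1. There the log2 ratio against day 0 was at least 0.79, a bound that leaves it unsettled whether the days differed 2-fold. Pdgfrb was near the limit of the array on each day, and a change of its level was not measurable.

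Kit encodes the receptor of stem cell factor. Probe set 1452514_a_at read 1721 on day 0, 909 on day 1 and 2527 on day 2, while 1415900_a_at read 553, 340 and 915. Both had the same order, with day 1 lowest and day 2 highest. From day 1 to day 2 Kit was 2.78-fold higher on 1452514_a_at (log2 ratio 1.47 ± 0.25) and 2.69-fold on 1415900_a_at (1.43 ± 0.41). Of the 13468 genes compared, 278 had a higher ratio over this step, with 181 to 514 under the alternatives (a floor at the 60th percentile and a pseudocount).

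The other Kit differences were under 2-fold. Day 1 against day 0 gave log2 ratios of -0.92 ± 0.25 and -0.70 ± 0.41, and day 2 against day 0 gave 0.55 ± 0.25 and 0.73 ± 0.41. The probe sets shared their sign in all 3 comparisons. When arrays were scaled by the median of their signals above the floor, the day 1 ratio of 1452514_a_at was -1.03 and passed the threshold.

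Markers of other cell types known for Kit were mixed. In day 2 against day 0, of 7 germ cell markers 0 were higher (11.0% of all genes) and 4 were lower (10.1%), namely Dazl, Prdm1, Prdm14 and Tfap2c. The summed signals of the 7 were 3263, 1620 and 1425. The germ cell helicase Ddx4 read 534, 349 and 529, lowest on day 1 as Kit was, but its steps of 1.53-fold and 1.52-fold were under the threshold. Dppa3 was also lowest on day 1, while Dazl, Prdm1, Prdm14, Tfap2c and Piwil2 were lowest on day 2. Of 8 haematopoietic markers Ptprc, Tal1 and Hbb-bh1 were at the floor on each day, and the sums were 973, 1435 and 1237. Itga2b, an integrin of platelets and early blood progenitors, read 331, 176 and 408 on its 1 measured probe set, with the same order of days as Kit. It was 2.31-fold higher in day 2 against day 1. Gata1 went the other way over that step (190, 377 and 118), and Runx1 read 14.5, 479 and 285, with probe sets from 0.00 to 2.40 on day 2. The part of such cells in the Kit signal was not tested.

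**Figure D2:**
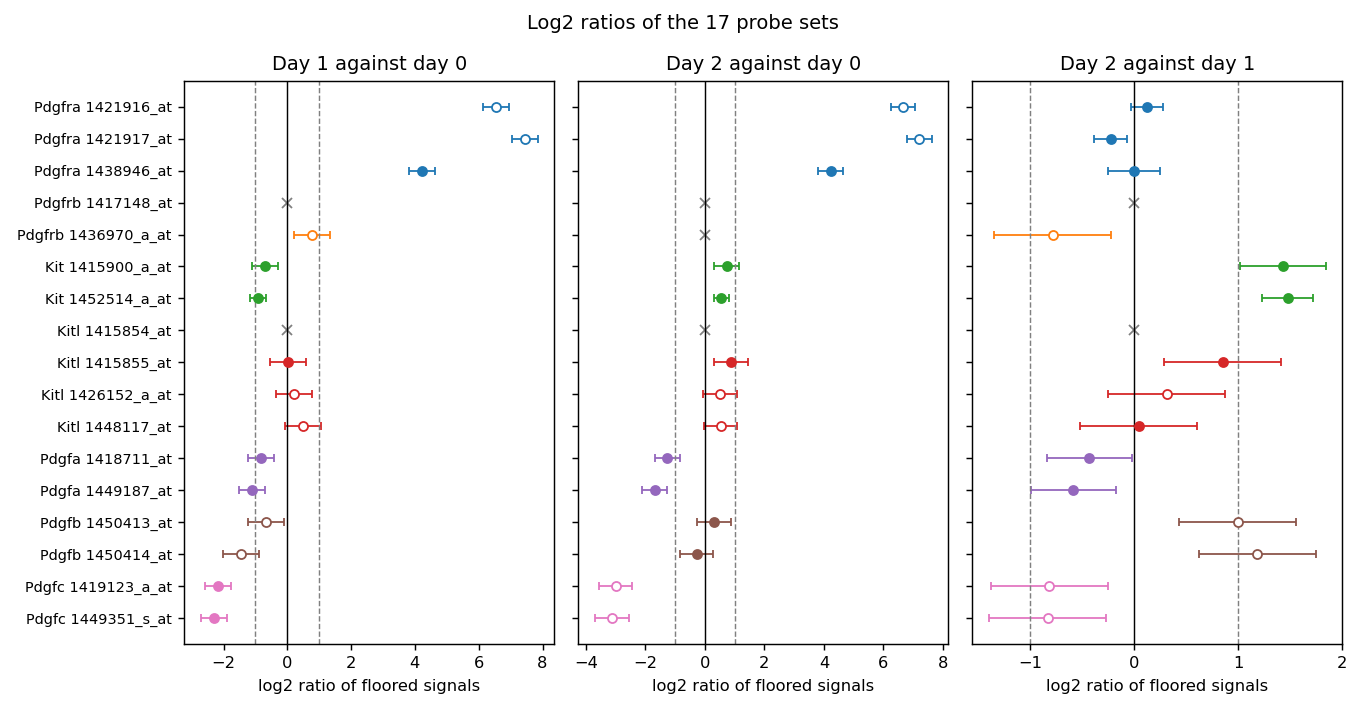
Log2 ratio of floored signals for each of the 17 probe sets in the 3 comparisons, with bars of the probe set spread at that brightness to either side. Open points are bounds, because the dimmer day lay under the receptor background, grey crosses are probe sets at the floor on both days, and dashed lines mark 2-fold. The Pdgfra points lie between 4.23 and 7.44 against day 0, and both Kit points lie above 1 only in day 2 against day 1.

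Pdgfa encodes the PDGF-A chain, the ligand of PDGFR-alpha. Probe set 1449187_at read 1376 on day 0, 642 on day 1 and 427 on day 2, while 1418711_at read 1096, 618 and 457. Day 0 was highest and day 2 lowest on both. Against day 0, 1449187_at was 2.14-fold lower on day 1 (log2 ratio -1.10 ± 0.41) and 3.22-fold lower on day 2 (-1.69 ± 0.41). On 1418711_at the folds were 1.77 and 2.40 (log2 ratios -0.83 and -1.26), so its day 1 value stayed under the threshold. The mean over both was -0.96 on day 1, also under it, and -1.47 on day 2. The step from day 1 to day 2 was -0.59 and -0.44, within 1.5 times the spread of 0.41, so the order of those days is not settled by 1 probe set alone.

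Pdgfb encodes the PDGF-B chain, which binds both receptors, and it was dim. Probe set 1450414_at read 149 on day 0, 44.6 on day 1 and 123 on day 2, while 1450413_at read 86.5, 20.7 and 107. Both were under the floor on day 1 and above the background on the other days. By 1450414_at, day 1 was at least 2.75-fold under day 0 and day 2 was at least 2.27-fold above day 1. By 1450413_at the bounds were 1.60-fold and 1.99-fold. Day 2 and day 0 were not separated, with log2 ratios of -0.28 and 0.31 of opposite sign and a spread of 0.56. A floor at the 60th percentile took away both differences (log2 ratio -0.03 for day 1 against day 0 and 0.00 for day 2 against day 1).

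Pdgfc encodes PDGF-C, a second ligand of PDGFR-alpha, which is secreted with a CUB domain and freed by proteases such as tissue plasminogen activator. Probe set 1419123_a_at read 474 on day 0, 105 on day 1 and 59.3 on day 2. Probe set 1449351_s_at read 471, 96.3 and 32.4. Day 0 was far above the other days on both, and by day 2 both were under the receptor background.

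Pdgfc was 4.53-fold and 4.89-fold lower on day 1 (log2 ratios -2.18 ± 0.41 and -2.29 ± 0.41). On day 2 it was at least 7.999-fold and at least 8.71-fold lower (-3.00 ± 0.56 and -3.12 ± 0.56). Genes with a lower ratio than Pdgfc numbered 124 of 13602 on day 1, and 86 to 227 under the alternatives. The day 2 ratio is a bound and its rank moved more, from 60 to 301 genes lower (the highest count came from a 60th percentile floor). The further step from day 1 to day 2, -0.82 and -0.83, was a bound, so its size is not settled.

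Kitl encodes stem cell factor. Probe set 1415855_at, the brightest of 4, read 96.4 on day 0, 98.5 on day 1 and 178 on day 2. Probe set 1448117_at read 53.7, 75.6 and 77.8, 1426152_a_at read 37.2, 62.2 and 77.2, and 1415854_at read 19.8, 48.3 and 21.0. All 4 were dim, and the last lay under the floor on each day.

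The day 2 signal of 1415855_at was 1.84-fold above that of day 0 (log2 ratio 0.88 ± 0.56), under the 2-fold threshold. The other 2 measured probe sets gave at least 0.51 and at least 0.53. On day 1 the log2 ratio of 1415855_at was 0.03. The widest Kitl ratio of floored signals on any probe set was 1.56 times the spread.

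**Figure D3:**
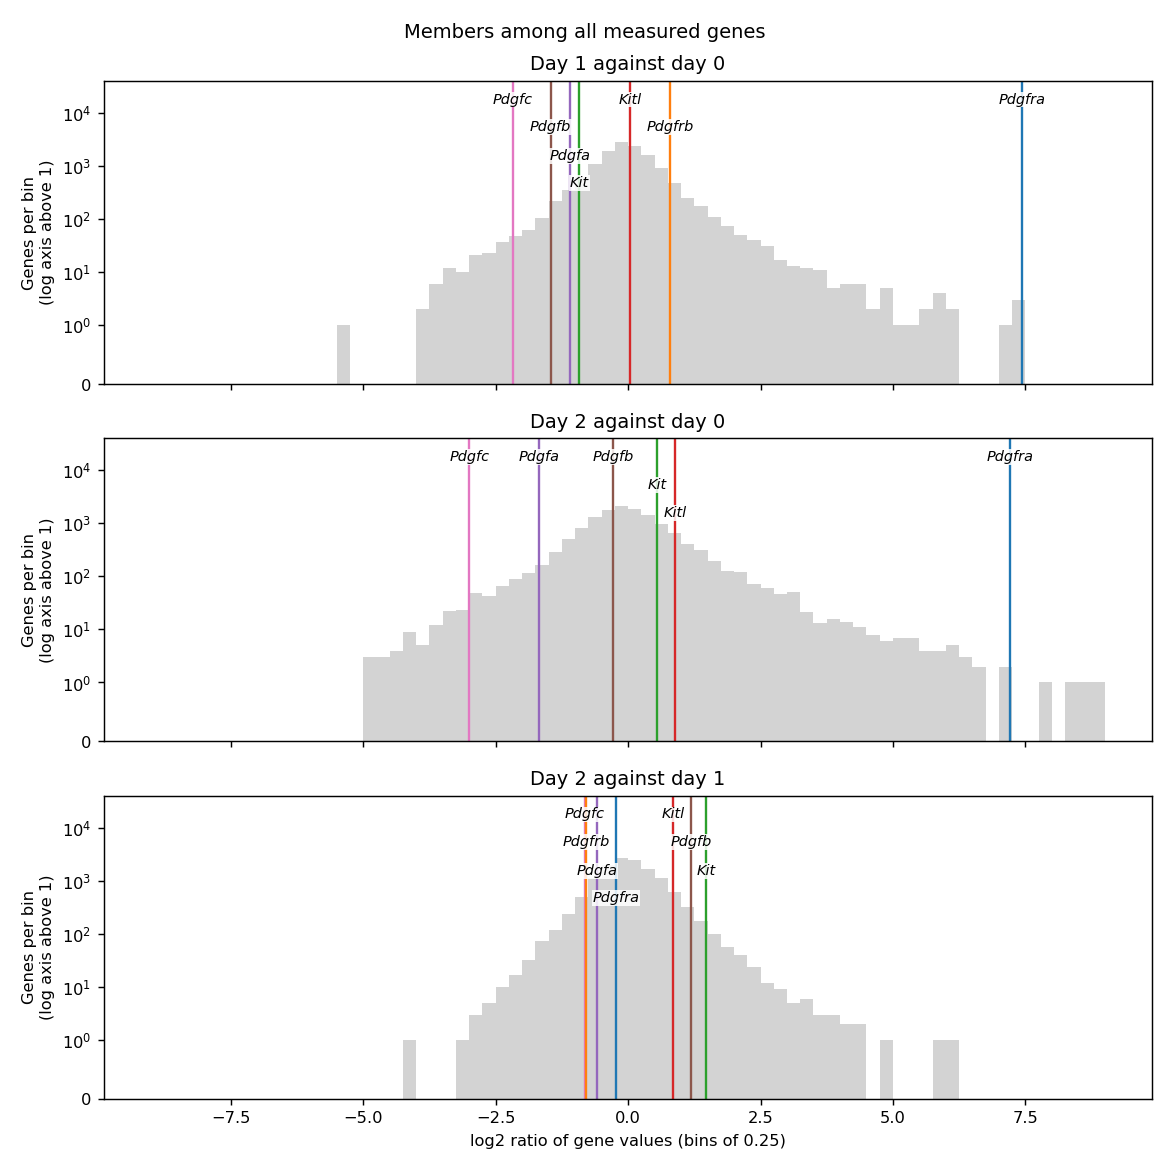
Distribution of log2 ratios of gene values over all measured genes in each comparison (bars, genes per bin of 0.25; the vertical axis is logarithmic above 1), with vertical lines at the members measured in it. Pdgfra stands at the far right on day 1 (7.44) and day 2 (7.21), Pdgfc in the left flank (-2.18 and -3.00), and Kit at 1.47 in day 2 against day 1.

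Pdgfra and Kit are neighbours on mouse chromosome 5, with 0 annotated protein-coding genes between them, and Kdr, the gene of a VEGF receptor, follows Kit with 0 between. The neighbourhood was examined after the members' values were known, taking the 4 protein-coding genes on the array to each side. Kdr read 90.3 on day 0, 78.6 on day 1 and 81.3 on day 2, near the background on each day. On the other side Gsx2, a homeobox gene of the brain, was under the floor on each day, and Chic2 read 2794, 4363 and 3738 (log2 ratios 0.64 and 0.42 against day 0). Fip1l1, Lnx1, Srd5a3, Tmem165 and Clock had log2 ratios from -0.17 to 0.95 against day 0. Of the 10 genes in the stretch, Pdgfra was the 1 that differed at least 2-fold from day 0. Of all genes, 6.00% were higher and 6.58% lower on day 1, and 11.0% and 10.1% on day 2.

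**Figure D4:**
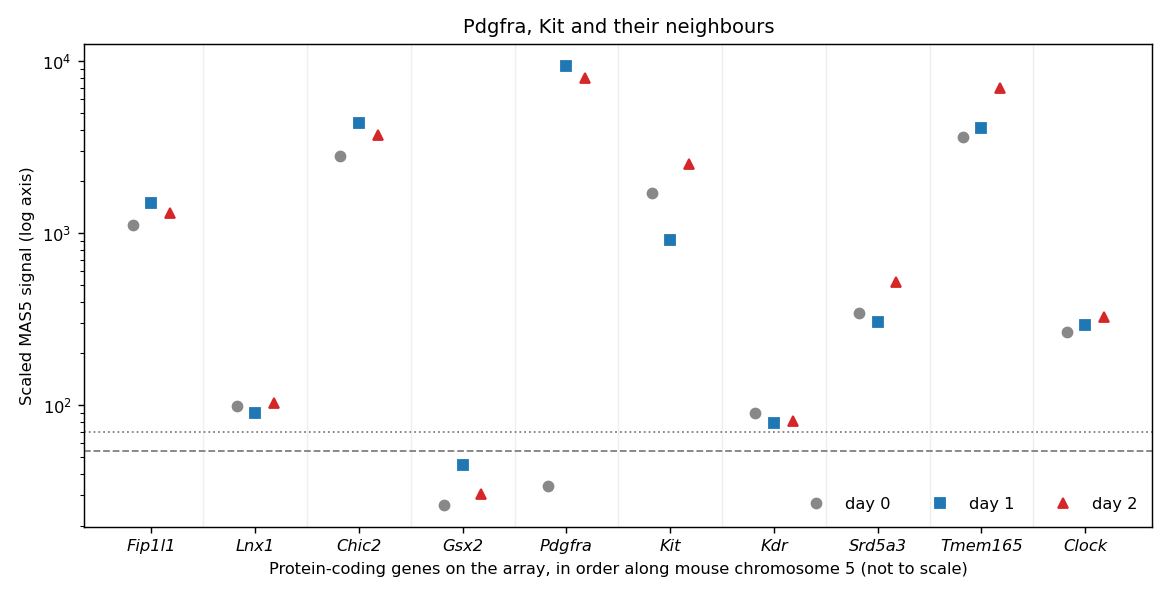
Scaled MAS5 signal (log axis) of Pdgfra, Kit and 4 array genes to each side, in their order along mouse chromosome 5 and not to scale, on day 0 (circles), day 1 (squares) and day 2 (triangles). Dashed and dotted lines are the floor and the receptor background. Only Pdgfra moves from under the floor on day 0 to 9365 and 7986 on the later days.

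The genes most like each member in time course were found by the root mean square difference in the log2 ratios of day 1 and of day 2 against day 0, over 14256 other measured genes. For Pdgfra they were the transcription factor Sox17 (difference 0.47), the endocytic adaptor Dab2 (0.86) and the adhesion protein Flrt3 (0.92). The day 0 signals of Pdgfra, Sox17 and Flrt3 were all under the floor and set to it, so this likeness rests in part on the floor. For Pdgfc they were Pla2g10 (0.03), Emp1 (0.06) and the pluripotency factor Nanog (0.07), among 87 genes within 0.5. Nanog read 14631, 3442 and 1841 on the 3 days, above the receptor background on each. The day 2 signal of Pdgfc, 59.3, lay under that background. Its likeness to Nanog therefore sets a bound beside a measured ratio. For Kit they were Slc43a2, Chrm1 and 4933406J09Rik, among 543 genes within 0.5, and for Pdgfa 4930444M15Rik, Slc25a12 and Tmem47, among 696. For Pdgfb, under the floor on day 1, they were Irak2, Upk2 and Plk5 (358 genes within 0.5). The lists for Pdgfrb (Tnfrsf11a, Tsx and Aknad1; 2627 genes within 0.5) and Kitl (Gm5817, Phf7 and Ttc39a; 3214) say little, with that many genes as near, and the genes named for Pdgfrb were, like it, under the floor on day 0 and day 2. Each likeness rests on 3 arrays.

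Of the other receptors and ligands of the PDGF and VEGF families, 1 of 10 passed the threshold upward on day 1 (Nrp1; 6.00% of all genes) and 1 downward (Vegfc; 6.58%), at a median log2 ratio of -0.26. On day 2 it was passed upward by 3 of 11 (Pdgfrl, Flt1 and Nrp1; 11.0% of all genes) and downward by 1 (Vegfc; 10.1%), at a median of 0.35. Pdgfrl, which encodes a secreted protein resembling the outer part of the PDGF receptors, read 155, 241 and 502 and was 3.24-fold higher on day 2. The gene that was lower on both days was Vegfc, a lymphatic growth factor, at 976, 241 and 83.4, which was 11.7-fold lower on day 2. Nrp1, a co-receptor for VEGF and semaphorins, was at least 7.21-fold higher on day 2 (26.2, 225 and 389), and the VEGF receptor Flt1 at least 6.57-fold (22.9, 65.4 and 355). Those are the brightest probe sets, and the log2 ratios of all on day 2 ran from 0.73 to 2.85 for Nrp1 and from 1.16 to 2.72 for Flt1. Pdgfd, a ligand of PDGFR-beta, was under the floor on each day. Over the step from day 1 to day 2, 3 of 11 were higher (5.61% of all genes) and 1 was lower (3.67%), at a median of 0.54.

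By floored signals of the brightest probe set, 0 of 3 measured genes among the other class III receptors and their ligands passed the threshold in any comparison. On day 2, 11.0% of all genes were higher and 10.1% lower. Flt3 read 11.9, 61.1 and 76.8, at least 1.42-fold above day 0 on day 2, so whether it differed 2-fold is unsettled. Csf1r read 143, 130 and 169, and its ligand Csf1 read 178, 124 and 95.4. Probe sets disagreed in sign on day 2, with log2 ratios from -0.96 to 0.25 for Csf1r and from -0.90 to 0.98 for Csf1. Il34 was at the floor. The medians were -0.14 for day 1, 0.25 for day 2 and 0.33 between them.

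Among 8 measured genes for the cutting and release of these ligands, St14 alone passed the threshold on day 1, downward (6.58% of all genes, median of the 8 0.51). Plat alone passed it on day 2, upward (11.0% of all genes, median of the 8 0.48). Plat is tissue plasminogen activator, and it read 71.0, 138 and 439 (6.18-fold higher on day 2), although its probe sets spanned log2 ratios from -0.37 to 2.63. Adam10 was 1.98-fold above day 0 on day 2. Mmp9 read 27.7, 91.5 and 107, which gives at least 1.98-fold on day 2 and leaves it unsettled whether it passed the threshold. St14 (matriptase) read 629, 283 and 605, so its day 2 signal lay close to that of day 0. From day 1 to day 2, Plat and St14 were higher, 2 of 7 compared (5.61% of all genes, median of the 7 0.22).

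Of 30 signalling genes next to the receptors, day 1 had 3 higher (Sos2, Pik3r1 and Grb10) and 2 lower (Pik3cb and Pik3cd), at a median of -0.08. Day 2 had 5 higher (those 3, Gab2 and Akt1) and 0 lower, at a median of -0.06. The shares of all genes higher and lower were 6.00% and 6.58% on day 1, and 11.0% and 10.1% on day 2. Pik3r1, the regulatory subunit of PI3-kinase, which docks on activated PDGF receptors and Kit, was 10.9-fold higher on day 1 and 7.15-fold on day 2 (180, 1975 and 1290). Its 4 probe sets had log2 ratios from 2.71 to 3.67 on day 2. The adaptor Grb10 was 5.09-fold and 3.24-fold higher (214, 1089 and 694; probe sets from 0.39 to 1.70 on day 2), and the kinase Akt1 was 4.07-fold higher on day 2 (522, 936 and 2121), with probe sets from 0.00 to 2.02, where 0.00 is a probe set at the floor on both days. Pik3cb, a catalytic subunit, read 453, 198 and 457. Between day 1 and day 2, Pik3cb and Akt1 were higher (5.61% of all genes) and Sos1 lower (3.67%), at a median of 0.02.

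Of 15 negative regulators of these receptors, Socs1 was higher on both days, Spred1 lower on both, Ptprj lower on day 1 and Spred2 lower on day 2, at medians of 0.05 and -0.21. The shares of all genes higher and lower were 6.00% and 6.58% on day 1, and 11.0% and 10.1% on day 2. Spred1 was also the 1 of 14 that was lower from day 1 to day 2 (3.67% of all genes). The inhibitor of Ras and ERK signalling Spred1 was 2.65-fold and 5.61-fold lower (1435, 542 and 256; probe sets from -2.49 to 0.00 on day 2), and Spred2 was 2.13-fold lower on day 2 (probe sets from -1.14 to 0.20). Socs1, a suppressor of cytokine signalling, was at least 3.82-fold and at least 2.49-fold higher (8.10, 206 and 134).

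Among 13 compared immediate early genes, which growth factors switch on within minutes, Jun was higher on both days, Ier2 and Dusp1 were lower on both and Myc was lower on day 2, at medians of -0.50 and -0.15. The shares of all genes higher and lower were 6.00% and 6.58% on day 1, and 11.0% and 10.1% on day 2. Jun was also the 1 of 10 that was higher from day 1 to day 2 (5.61% of all genes). Jun was 9.21-fold higher on day 2 (73.5, 187 and 677), whereas Ier2 was 5.04-fold lower (3553, 1197 and 705) and Myc 3.21-fold lower (1181, 724 and 368). Egr1 and Fos stayed near the background, with highest signals of 108 and 98.5.

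Markers of other cells that carry PDGF receptors or make their ligands were mostly dim, with a few bright on day 0. For the counts below, the shares of all genes higher and lower were 6.00% and 6.58% on day 1, and 11.0% and 10.1% on day 2. Of 10 fibroblast markers, a check for feeder cells, 7 were at the floor on each day, among them Col1a1, Col3a1, Dcn and Lum, and the sums with floored values were 938, 610 and 627. Thy1 was lower (421, 75.4 and 50.5), and Twist1 was at least 2.08-fold higher on day 2, at 113. Of 8 mural cell markers Tagln and Abcc9 were at the floor, 0 were higher on any day, and the sums were 1281, 673 and 874, with Mcam lower (467, 7.00 and 15.9). Of 8 endothelial markers Tie1 and Cldn5 were at the floor, 0 were higher and 2 lower on each day (Tek, and Pecam1 at 1036, 431 and 200), and the sums were 1681, 1013 and 705. Of 7 mesoderm markers, Foxf1 was higher (its probe sets disagreed in sign, from -0.97 to 1.51) and Mesp2 and Meox1 were lower on day 2, with sums of 842, 536 and 669. The fibroblast, mural and endothelial sums were moved largely by single genes (Thy1, Mcam and Pecam1). The part of such cells in the signals of the members was not tested.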

How the data were processed

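RNA from 3 cultures, 1 per day, was hybridised to 3 arrays. Each probe set has a deposited intensity on a linear scale, made with MAS5 per the submitters' processing notes; no version, scaling target or genome build is given in the sources used here. Their 2% trimmed means were 497.5, 497.6 and 497.7, so the authors' values were already scaled. A global scaling of this kind takes total signal as equal between days.

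Of 45101 probe sets, 64 were controls, 34945 had 1 gene, 932 several and 9160 none. Symbols were updated by gene ID through RefSeq (GRCm38.p6), where 34741 matched. Arrays were brought to 1 trimmed mean, floored at the 40th percentile (54.0) and put on the log2 scale. The brightest probe set by mean log2 signal stood for a gene. The spread between probe sets came from 58808 pairs over the 3 comparisons, and the background from 78 receptor probe sets. No p-value is given, since precision is limited by there being 3 arrays.

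Named genes were the members, Gata6, the 3 genes of each list furthest from day 0 on day 2 and the 3 nearest in time course to each member; others are examples picked after their values were seen. Members and lists were chosen with earlier results of these data known. Alternatives changed scaling, floor, probe set choice and threshold. Python 3.11.15, NumPy 2.4.6 and pandas 2.3.3 were used, with limma 3.58.1 for quantile and loess scaling. The calls were also run on simulated arrays, with changes wider than the threshold in genes bright on day 0 and noise from the probe set spread. That run does not cover dim members, differences near the threshold or differences between cultures.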

Additional observations from a re-analysis of the deposited data

How the results depend on the processing

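The 6 counts of members higher or lower were recomputed under 12 alternatives, and 63 of the 72 values stayed within 1.5 times the count reported. The share of all genes under the same setting is given beside each count. A floor at the 25th percentile left 2 members higher on day 1 (7.81%) and 1 lower in day 2 against day 1 (5.71%). The addition was the dim gene Pdgfrb each time. With a 1.5-fold threshold, 2 were higher on day 1 (Pdgfrb added; 13.3%) and 2 were higher on day 2 (Kitl added; 20.2%). At that threshold 3 were lower in day 2 against day 1 (Pdgfrb, Pdgfa and Pdgfc; 12.1%). With a 3-fold threshold, 1 was lower on day 1 (Pdgfc; 2.12%) and 0 were higher in day 2 against day 1 (1.69%). A floor at the 60th percentile or at the receptor background left 1 higher in day 2 against day 1 (Kit; 4.48% and 5.12%). Pdgfb dropped out because its day 1 signal was replaced by a higher floor. Pdgfra was higher on day 1 and day 2, and Pdgfc lower, under all 12.

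Of 210 log2 ratios of members recomputed under 10 alternatives, 192 moved by no more than the probe set spread, 18 moved further and 0 with a 2-fold difference changed sign. The Pdgfra ratio ran from 6.004 to 8.10 on day 1 and from 5.77 to 7.87 on day 2, since its day 0 signal is a floor. Scaling by the median of the signals above the floor took the median of all genes to -0.15 in day 1 against day 0. No paired analysis was possible because each day has a single array. Signals near the floor limit what can be said of Pdgfrb, Pdgfb and Kitl.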
